A study of Mus musculus with 10 samples.

Results

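The promoters described here are windows around transcript starts whose CpG methylation was highest in oocytes of old females and lower in both pools of young oocytes. A window was a member if its level in 11-month wild-type (WT) oocytes was at least 20 percentage points above its level in 2-month WT oocytes and at least 20 points above its level in 2-month Tet2 knockout (Tet2KO) oocytes. Of 40537 nuclear windows listed for all 3 pools, 363 met both conditions, which is 0.895% of them. The members were chosen by these measured levels, so their height at 11 months is a description and carries no test. By either condition alone, 1126 windows were higher than in 2-month WT (2.78%) and 789 higher than in Tet2KO (1.95%).

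The samples were mouse metaphase II oocytes, eggs ready for fertilisation, of a C57BL6/129 background. The 2-month WT pool held 4 libraries, the 11-month WT pool 3 and the 2-month Tet2KO pool 3, and each pool gave 1 value per window. The sources used here do not give the kind of Tet2 allele, and they differ on the input per sample, 10 oocytes in the series design and a single oocyte in the extraction protocol. No Tet2KO pool of 11 months was analysed here, so what is particular to age in the absence of Tet2 was not measured. A percentage is the share of CpG calls read as methylated after bisulfite treatment, and a point is a difference between such percentages.

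In mammalian oocytes DNA methylation is laid down during growth by Dnmt3a with its cofactor Dnmt3l, mostly over transcribed gene bodies, while CpG-rich starts of active genes usually stay free of it. A start that lies inside a longer transcription unit can therefore become methylated along with the body around it. Tet enzymes oxidise methylcytosine, and bisulfite does not separate methylcytosine from hydroxymethylcytosine. A level between 0% and 100% in a pool cannot tell partly methylated windows in every oocyte from fully methylated windows in some of them.

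Median coverage of a shared window was 131 calls for young WT, 245 for old WT and 79 for Tet2KO. Percentages listed in threes below run in the order 2-month WT, 11-month WT, Tet2KO. Among imprinted genes that oocytes are known to methylate, the windows of Kcnq1ot1, Airn, Peg3, Plagl1, Peg13, Snurf and Nap1l5 were at 90.9% or more in every pool. Peg10 was at 66.7%, 89.6% and 86.7% and Mcts2 at 92.9%, 87.2% and 75%, while Mest was at 3.06%, 1.32% and 7.69% and Grb10 at 2.38%, 2.33% and 1.49%. Of the other imprinted genes looked at, H13, Blcap, Inpp5f, Igf2r, Magel2, Mkrn3 and Peg12 were at 8.62% or less in every pool. Zim1 was at 32.2%, 19.6% and 16.7%, and a window shared by Peg10 and Sgce at 65%, 70.1% and 67.9%. Whether the windows of these genes, or of Mest and Grb10, cover the imprinted region was not tested. H19, which oocytes leave unmethylated, was at 4.21%, 1.61% and 2.5%. Wilson 95% intervals of levels and Newcombe 95% intervals of differences are given beside values. They take each CpG call as an independent draw and cover counting error only. Several calls can share a CpG position, so the intervals may be too narrow, and the independence of calls was not tested. Pools described below as apart are so by these intervals only. No spread between libraries or animals could be measured. Whether a pooled level rests on part of the libraries was not tested, nor was the share of calls from cells other than oocytes.

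The sequences of 3 member promoters are printed because they differ in CpG content. They are the first 3 in order of margin with an entry in the RefSeq promoter table (build GRCm38.p6, which mm10 represents), each running from 250 bases before to 50 after the start, 5′ to 3′ on the gene's strand, with CpG sites in capitals. The margin of a member is its 11-month level minus the higher of its 2-month levels.
Pla2g10, chr16:13730435-13730734, minus strand: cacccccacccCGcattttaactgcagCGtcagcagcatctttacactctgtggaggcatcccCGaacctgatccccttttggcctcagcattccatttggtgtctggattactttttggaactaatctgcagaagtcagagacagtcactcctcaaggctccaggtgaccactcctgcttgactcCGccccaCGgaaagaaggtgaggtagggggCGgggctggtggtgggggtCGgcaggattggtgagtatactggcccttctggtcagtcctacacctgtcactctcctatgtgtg
Sorl1, chr9:42124248-42124547, minus strand: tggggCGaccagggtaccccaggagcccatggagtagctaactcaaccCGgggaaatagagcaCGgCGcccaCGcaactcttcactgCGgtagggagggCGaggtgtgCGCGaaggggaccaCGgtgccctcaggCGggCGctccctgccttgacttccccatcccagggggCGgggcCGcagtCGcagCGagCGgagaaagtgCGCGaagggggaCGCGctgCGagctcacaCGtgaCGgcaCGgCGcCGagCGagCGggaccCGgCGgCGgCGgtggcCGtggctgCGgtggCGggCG
Smok2b, chr17:13230013-13230312, plus strand: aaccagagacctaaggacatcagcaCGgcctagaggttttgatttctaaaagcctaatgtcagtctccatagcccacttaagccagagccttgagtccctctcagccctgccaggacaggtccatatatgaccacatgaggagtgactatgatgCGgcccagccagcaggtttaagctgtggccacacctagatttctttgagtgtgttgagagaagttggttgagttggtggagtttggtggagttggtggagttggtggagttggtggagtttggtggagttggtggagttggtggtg
The printed start of Pla2g10 belongs to an overlapping member window at 28.3%, 91.5% and 6.45%, and the table has no entry at the centre of the window with the largest margin. Pla2g10 had 7 CpG sites in these 300 bases, Sorl1 37 and Smok2b 2. The ratio of observed to expected CpG was 0.302 for Pla2g10, 0.963 for Sorl1 and 0.110 for Smok2b. A strongly CpG-depleted start and a start of CpG-island composition thus both stood among the members with the largest margins.

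Most members were partly methylated at 11 months. Their 11-month level ranged from 20% to 100% with a median of 56.7%, while the median was 17.6% in 2-month WT and 20% in Tet2KO. At 11 months 293 members (80.7%) lay from 20% to below 80%, and a further 70 were at 80% or more. The rule admits no 11-month level below 20%, where most shared windows lie, so these shares are partly fixed by it. Over all shared windows 3142 (7.75%) lay from 20% to below 80% and 4626 (11.4%) at 80% or more. In the young pools 145 members were under 20% in both, 103 were at 20% to 60% in both and 17 were over 60% in both. A change from nearly free of methylation to nearly full was rare: 1 member, Pla2g10, was under 20% in both young pools and at 80% or more at 11 months among windows read here. Margins over 50 points were held by 17 members, and 139 had 30 or more.

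**Figure D1:**
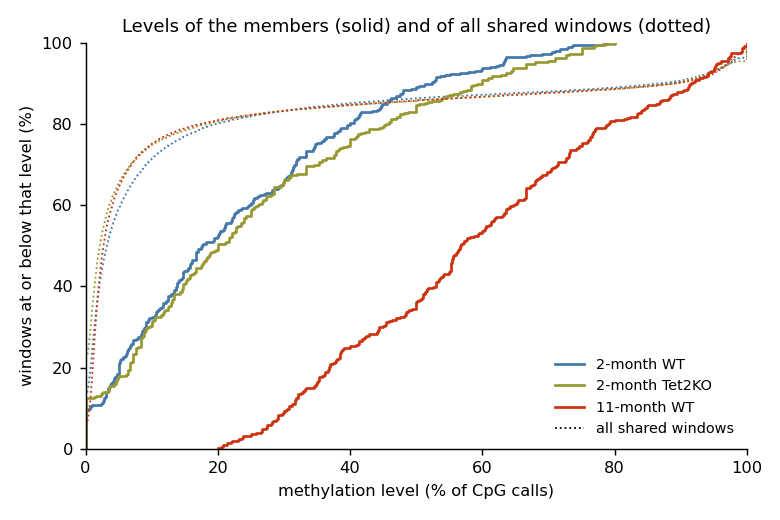
Cumulative share of windows (vertical axis, %) at or below a methylation level (horizontal axis, % of CpG calls) for the 363 members (solid) and all 40537 shared windows (dotted) in each pool. The 11-month curve of the members is spread between 20% and 100%, with a median of 56.7%, and their 2-month curves have medians of 17.6% in WT and 20% in Tet2KO.

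**Figure D2:**
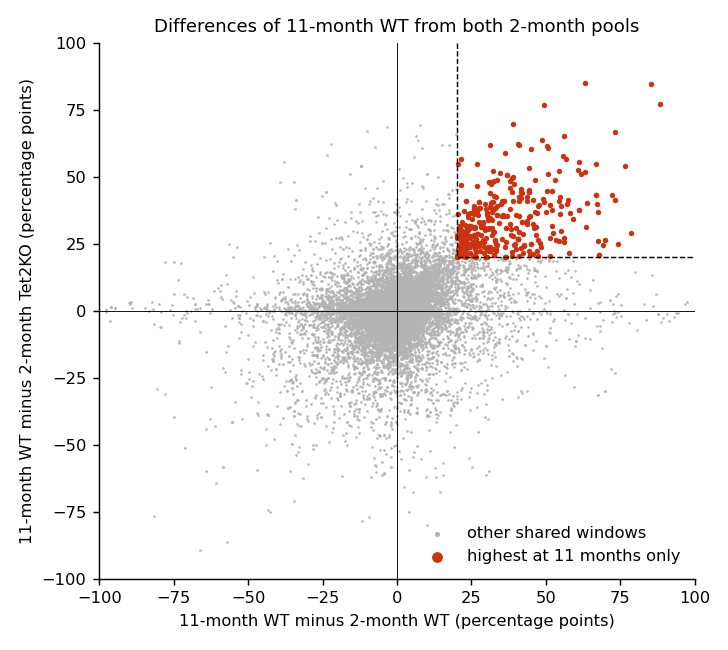
Difference of 11-month WT from 2-month WT (horizontal axis) and from 2-month Tet2KO (vertical axis), in percentage points, for each shared window. The 363 members fill the corner beyond 20 points on both axes (dashed lines); both differences share the 11-month pool, so the slant of the cloud is not read as a relation.

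The leading named promoters were those of 15 loci with the largest margins among named loci with at least 20 calls in every pool. They are described by the known role of the gene, and the roles were not tested as a group. In Pla2g10, a secreted phospholipase A2 that frees fatty acids from membranes, 2 of 35 calls were methylated in young WT, 41 of 45 in old WT and 2 of 31 in Tet2KO. The named window (chromosome 16, 13729984 to 13731983) was thus at 5.71%, 91.1% and 6.45%. It overlapped a pair of further members on its gene-body side. All of them were near 91% at 11 months, while 2-month WT stood at 28.3% and then 41.7% in the windows that reached further in, and Tet2KO at 6.45% and 14.3%. The innermost window belonged to the antisense transcript Pla2g10os, and these windows share calls.

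Among genes of lipid and mitochondrial function, Pparg, the nuclear receptor that drives fat cell formation, had 28 methylated of 541 calls for young WT, 146 of 231 for old WT and 33 of 124 for Tet2KO. Its window (chromosome 6, 115359951 to 115361950) was at 5.18%, 63.2% and 26.6%, higher at 11 months by 58.0 points (51.3 to 64.2) than in 2-month WT and by 36.6 points (26.0 to 45.8) than in Tet2KO. By the deposited fraction, which averages over CpG positions, these differences were 45.9 and 24.0 points. The young pools were themselves apart there, with Tet2KO higher by 21.4 points (14.1 to 29.98). Cidea, a lipid droplet protein of brown fat, was at 7.11% of 225 calls, 53.4% of 262 and 16.5% of 133. By the deposited fraction its Tet2KO level was 37.0% and its difference from Tet2KO 18.6 points. By share of calls, Tet2KO was above 2-month WT at Cidea by 9.43 points (2.67 to 17.1). Samm50, which assembles proteins of the outer mitochondrial membrane, was at 27% of 100 calls, 86.2% of 240 and 51.9% of 54. Its Tet2KO level lay between the WT levels and, by the intervals of the differences, apart from both. Ucp3, an inner mitochondrial membrane carrier, was at 39.5% of 43 calls, 73.2% of 71 and 37.5% of 24, with young pools that overlapped.

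Receptors and sorting proteins formed another share of the leading loci. Sorl1, a sorting receptor that carries the amyloid precursor protein, had more calls in each pool than the receptors named next: 14 of 457 calls were methylated in young WT, 166 of 238 in old WT and 17 of 112 in Tet2KO. The window (chromosome 9, 42123298 to 42125297) was at 3.06%, 69.7% and 15.2%, higher at 11 months by 66.7 points (60.3 to 72.3) and 54.6 points (44.7 to 62.3). The start of Sorl1 was thus CpG-rich, nearly free of methylation in young WT and methylated in most calls at 11 months. Tet2KO was higher there than 2-month WT by 12.1 points (6.28 to 20.0). By the deposited fraction the 11-month differences of Sorl1 were 57.7 points from 2-month WT and 48.9 from Tet2KO. Gpr143, a receptor of pigment granules encoded on the X chromosome, was at 6.82% of 44 calls, 68.8% of 96 and 17.7% of 62. Ptgfr, the receptor of prostaglandin F, was at 23.6% of 55 calls, 63.1% of 111 and 15.7% of 83. Mchr1, a receptor of melanin-concentrating hormone, was at 38.1% of 42 calls, 92.8% of 97 and 56.7% of 30. At these 3 receptors the interval of Tet2KO minus 2-month WT held 0.

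The other leading loci held genes of varied function. Sbspon, a secreted protein with thrombospondin repeats, was at 37.6% of 133 calls, 88.2% of 203 and 27.5% of 120. Smok2b, named as one of the sperm motility kinases, was at 22.2% of 45 calls, 94.3% of 88 and 51.3% of 119, on at most 9 covered CpG positions. Tet2KO lay between the WT pools at Smok2b, and at Sbspon the interval of Tet2KO minus 2-month WT held 0. Ippk, which makes inositol hexakisphosphate, was at 19.8% of 247 calls, 71.2% of 285 and 31.9% of 47. Bcl2l2, a survival protein of the Bcl2 family, was at 22.5% of 80 calls, 60.3% of 68 and 14.6% of 48. Both kept their young pools within counting error of each other. Emc9, a subunit of the membrane protein insertion complex of the endoplasmic reticulum, was at 22.0% of 223 calls, 55.3% of 360 and 12.96% of 108. Myo1c, an unconventional myosin, was at 24.4% of 41 calls, 66.3% of 89 and 22.2% of 36, but its deposited fractions were 45.5%, 56.5% and 43.8%. By that measure the Myo1c differences were 11.1 and 12.8 points, below the threshold.

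**Figure D3:**
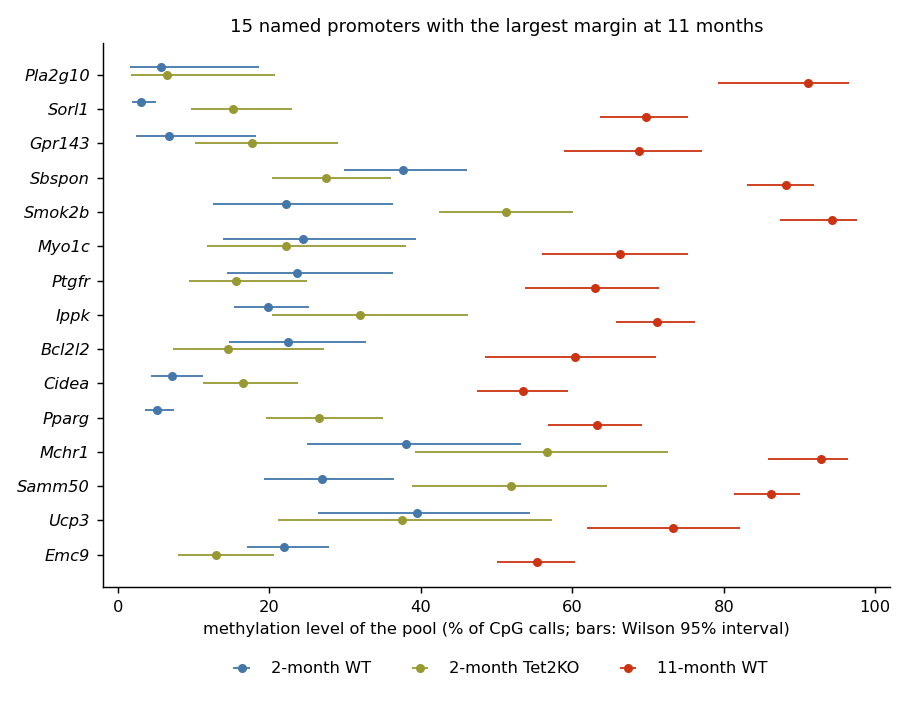
Methylation level (horizontal axis, % of CpG calls) of the 15 leading named promoters in each pool, with Wilson 95% intervals that cover counting error. In each row the 11-month point lies to the right of both 2-month points, as the choice of members fixes; Tet2KO lies near 2-month WT at Pla2g10 and Ucp3 and between the WT pools at Smok2b and Samm50.

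A further 8 named loci were taken for the calls in their least covered pool. Gpr135, an orphan receptor that shares its window with the predicted gene Gm3225, was at 19.3% of 626 calls, 46.3% of 633 and 9.03% of 310. Hint1, a nucleotide phosphoramidase, was at 13.7% of 439 calls, 45.5% of 442 and 4.94% of 263, with differences of 31.8 points (26.0 to 37.3) and 40.5 points (34.9 to 45.6). At both, Tet2KO was lower than 2-month WT, with an interval that excluded 0. Tmtc2, a protein of the endoplasmic reticulum, went the other way among the young pools: 2.83% of 106 calls in 2-month WT, 26.9% of 108 in Tet2KO and 54.0% of 346 at 11 months. Rnf225, a RING finger protein, had 49 methylated of 166 calls in young WT, 157 of 260 in old WT and 26 of 208 in Tet2KO, and by the deposited fraction its difference from 2-month WT was 11.9 points. Mpp3, a membrane scaffold, had 22 methylated of 176 calls, 126 of 361 and 12 of 168 in the same order. Tubb2b, a beta tubulin, was at 6.37%, 28.7% and 2.41%, and the deposited fraction put its differences at 11.8 and 16.8 points. Cldn5, the tight junction protein of endothelium, was at 14.8% of 479 calls, 37.8% of 535 and 16.4% of 165, and by the deposited fraction its difference from Tet2KO was 10.7 points. Mrpl55, of the mitochondrial ribosome, was at 32.0%, 55.3% and 26.3%.

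Of the 363 members 141 took a gene symbol and 222 did not. Of those 222, 142 had their centre inside a protein-coding gene and 80 did not. The windows named in this paragraph were picked after their values were seen. In Nlgn1, a synaptic adhesion protein, a window at the gene's 5′ end (chromosome 3, 26331461 to 26333460) was at 0.395% of 253 calls, 61.0% of 318 and 8.44% of 154. Among members without a symbol and with at least 20 calls in every pool, a window in Prdm6, a transcriptional regulator of smooth muscle, had the widest margin, at 10.9% of 119 calls, 99.2% of 130 and 22.2% of 90. Nlgn1 and Prdm6 were thus low in both young pools and far higher at 11 months. A pair of nearly identical windows at a start of Dnah6, a dynein heavy chain of cilia, had 0 methylated calls of 49 and 0 of 29 in 2-month WT and Tet2KO against 60 of 135 (44.4%) at 11 months. A window in Pdgfb, a growth factor, was at 34.5% of 235 calls, 67.9% of 355 and 18.98% of 274, and its deposited fractions were 26.5%, 61.2% and 30.5%. At a start of Cacna1d, a calcium channel subunit, the deepest member by its least covered pool was at 9.59% of 469 calls, 29.8% of 731 and 2.58% of 582. The deposited fractions of Cacna1d were 19.8%, 35.5% and 6.12%, less than 20 points apart between the WT pools.

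The young pools were set against each other in the members, a difference that the rule limits only through its ceiling. Tet2KO was above 2-month WT in 165 members, below it in 170 and equal in 28, and the median difference was 0 points. The quartiles of this difference were -6.18 and 9.41 points in members, against -3.10 and 1.53 points over all shared windows. The spread of this difference was thus wider in members than in shared windows at large. Members also had fewer calls, with a median of 25 against 75 in the least covered pool. Their 2-month WT levels were higher, with a median of 17.6% against 3.23%. The part of depth and level in the wider spread was not tested. The pools were within 10 points in 221 members (60.9%), and in 293 the interval of their difference held 0. Most members therefore had young levels that could not be told apart at this depth, although the median member had only 27 calls in Tet2KO. Tet2KO exceeded 2-month WT by 20 points or more in 40 members, and 2-month WT exceeded Tet2KO by that much in 11. Those 40 lay between the WT pools, as the choice of members fixes for any member with Tet2KO above 2-month WT. Among them were the windows of Smok2b, Pparg and Samm50 described above. The counts of members given here for the young pools were not made over all shared windows. They are not read as particular to members.

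**Figure D4:**
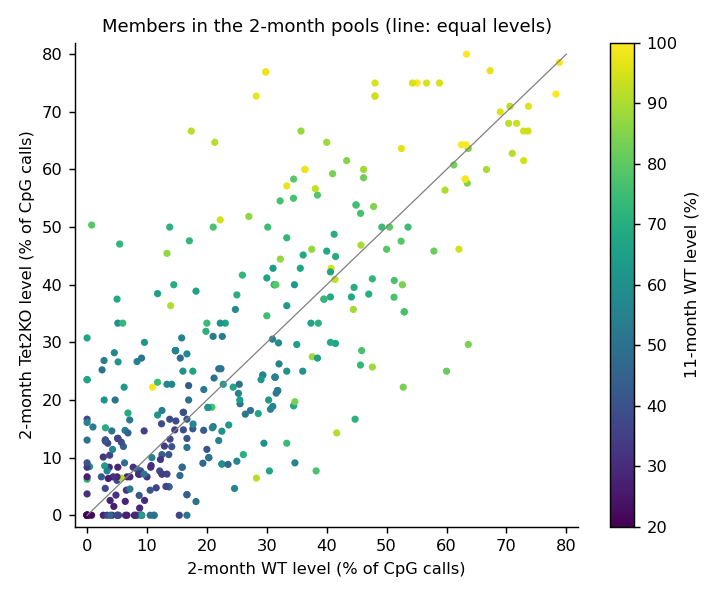
Level of each member in 2-month WT (horizontal axis, % of CpG calls) and in 2-month Tet2KO (vertical axis), with the 11-month level as colour and a line at equal levels. Points lie on both sides of the line, 165 above it and 170 below, and the 11-month level exceeds both axes by at least 20 points, as the choice of members fixes.

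Members were CpG-poor and thinly covered compared with other windows. In the best-covered pool the median member had 25 covered CpG positions, against 60 over all shared windows, and 60.3% of members had 5 to 29 such positions against 27.9% of windows. The pool with the fewest calls held a median of 25 calls in members and 75 in all windows. Members made up 2.04% of windows with 10 to 19 calls in that pool, 1.48% with 20 to 49, 0.655% with 50 to 99 and 0.217% with 100 or more. The part of coverage and of CpG number in the count of members was not tested. A count of 0 methylated calls at the median depth of a member allows a level of up to 6.25% for young WT, 4.92% for old WT and 11.1% for Tet2KO. In 293 members (80.7%) the intervals of both differences lay above 0, and in 57 both lower bounds were at 20 points or more. The intervals are of the differences that chose the members, so these counts are no test of them.

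**Figure D5:**
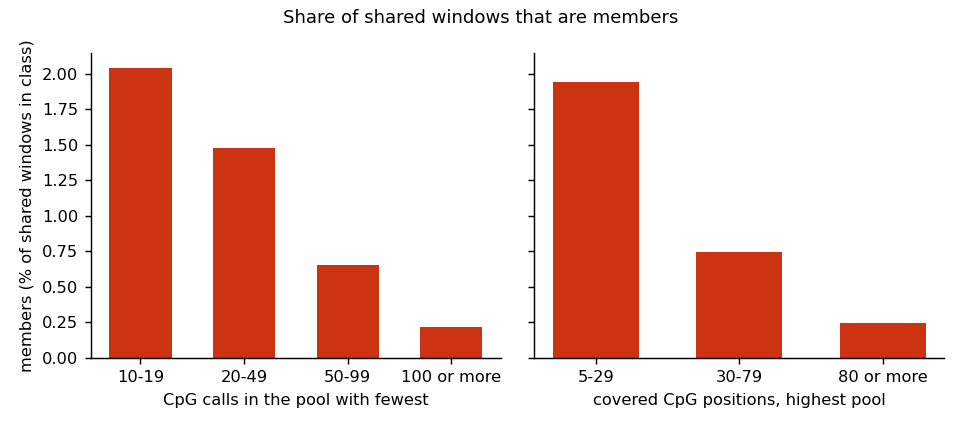
Share of shared windows that were members (vertical axis, %) by CpG calls in the pool with fewest (left) and by the largest number of CpG positions covered in any pool (right). The share fell from 2.04% to 0.217% with calls and from 1.94% to 0.243% with CpG positions.

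By starting level, members were most frequent among windows already partly methylated in young oocytes. They were 0.214% of windows with a mean 2-month level below 5%, 1.67% at 5% to 20%, 5.48% at 20% to 40%, 6.07% at 40% to 60% and 3.83% at 60% to 80%. A margin of 20 points cannot be reached from a start above 80%. These classes use the same 2-month levels as the rule, so the shares are descriptions. The part of counting error in them was not tested. By the same margin, 203 windows were lowest only at 11 months, so more windows were highest than lowest in that pool. Of the 363 members 84 had at least 50 calls in every pool, and of the 203 lowest windows 34 had. In the same way 769 windows were highest and 606 lowest only in 2-month WT, and 516 were highest and 279 lowest only in Tet2KO. More highest than lowest windows were thus found in every pool. Of the 3 pools the 11-month pool gave the fewest windows of either kind, and it also had the most calls in 86.6% of shared windows.

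Neighbouring windows were compared with the members; none of them could reach the margin, since a window that does is itself a member. The 363 members fell into 284 loci of overlapping windows, of which 236 were a single window, and Ins2 and Mrpl55 had the largest loci, with 6 windows each. Windows that overlapped a member without being one (78 windows, which share calls with it) had a median difference of 11.1 points from 2-month WT and 8.45 points from Tet2KO. At 110 windows up to 5 kb away without overlap the medians were 0.699 and 0.930 points, against 0 and 0.367 over all non-members. In these, 11 months was the highest pool in 46 of 110 (41.8%), against 32.3% of non-members. Many of the 110 overlap one another and share calls, such as a run of windows at Ap4b1 and Dclre1b on chromosome 3 that all count among the 46. They are therefore not separate observations. Within genes that held a member, 336 other windows had median differences of 0.456 and 0.560 points. Many of the 336 lay in a protocadherin cluster on chromosome 18 or at overlapping starts of a gene such as Camk2d, mostly at low levels in every pool. The medians are weighted towards such windows. The inner window of Myo1c was at 2.0%, 1.67% and 1.51%, while a pair of inner windows of Fgfr1, a receptor of fibroblast growth factors, stood at 90.5% or more in every pool. At its member window Fgfr1 was at 62.5% of 120 calls, 99.6% of 245 and 64.3% of 14.

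Members were spread over all autosomes and the X chromosome. Chromosome 7 held 50 (1.34% of its windows), chromosome 6 held 33 (1.38%) and chromosome 14 held 19 (1.48%). The share was lowest on chromosome 19, with 4 members (0.369%), and on chromosome 12, with 5 (0.402%). The X chromosome held 14 members (1.12%).

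Of 452 measured genes in 14 lists, 6 had a member window. By windows, 13 of 661 were members (1.97%, against 0.895% of all shared windows), 6 of them overlapping windows of Ins2. List windows all carry a symbol, and of 21509 shared windows with a symbol 141 were members. No member was found among the measured genes of the maternally imprinted (20 genes), paternally imprinted (4), germline and meiosis (31), oocyte (20), pluripotency (17), housekeeping (24), developmental regulator (66) and muscle, cartilage and matrix (44) lists. These lists hold 9 to 85 windows each, too few to tell a count of 0 from the share over all windows. The other lists had 1 gene each, of which 5 are described. Itgal, an integrin subunit of leukocytes, was the only member of 61 immune genes, at 52.9% of 17 calls, 76.3% of 59 and 35.3% of 17, and the interval of its difference from 2-month WT, -0.888 to 47.1 points, held 0. Ins2, an insulin gene and the member among 46 genes of hormones and growth factors, was at 14.8% of 61 calls, 55.3% of 38 and 28.6% of 14, and the interval of its difference from Tet2KO, -3.67 to 48.98 points, held 0. Cldn5 was the member among 37 epithelial genes, Sorl1 among 48 neuronal genes and Smok2b among 23 sperm genes. The share of windows with 11 months as the highest pool ran from 12.1% (sperm) to 43.5% (epithelial) over the 14 lists, against 32.9% of all shared windows. In the sperm list the median difference from 2-month WT was -6.67 points, the opposite direction to Smok2b. Over all list windows the median difference was 0 points from 2-month WT and 0.363 from Tet2KO, against 0 and 0.394 over all shared windows.

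Families were also counted by the start of the symbol, over windows with a symbol. They are to be read against the 141 members among 21509 windows with a symbol, a lower share than the 0.895% of all shared windows. Olfactory receptors had 5 members of 216 windows (2.31%), namely Olfr140, Olfr318, Olfr703, Olfr1497 and Olfr1507, each with 10 to 13 calls in its least covered pool. Of all shared windows with 10 to 19 calls in that pool, 2.04% were members. Solute carriers had 2 members of 378 windows, both of Slc50a1, a sugar transporter, and cytochrome P450 genes 1 of 49, Cyp2a4. Zinc finger genes named Zfp had 0 of 415 windows and Tmem genes 0 of 265, but members without a symbol lay at starts of Zfp385b, Tmem184a and Tmem176b, which these counts leave out. Keratins had 1 of 46, Krt28, beta-defensins 1 of 12, Defb25, and genes with a Cd number 3 of 89, at Cd163 and Cd59b. Cd163, a scavenger receptor of macrophages, was at 0% of 28 calls, 66.7% of 75 and 23.5% of 17.

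The RefSeq table held 108 promoters, of 103 symbols, with a start within 200 bp of a member's centre. Their median CpG ratio, observed over expected, was 0.306, against 0.685 for 17483 promoters at shared windows. A ratio of 0.6 or more was found in 27.8% of them and in 58.5% of all. The median promoter held 6 CpG sites in 300 bases, against 17. Short motifs were searched on both strands. The GC box GGGCGG, a letter string that itself holds a CpG, was present in 30.6% of member promoters and 55.9% of all. Shares were 8.33% and 8.35% for TATAAA, 30.6% and 37.1% for CCAAT, 7.41% and 9.41% for the E-box CACGTG, 0.926% and 2.75% for TGACGTCA and 19.4% and 13.5% for AGGTCA, the receptor half-site letters. These shares are descriptions of letters in a window and of no binding. Of the promoters printed above, that of Sorl1 held GGGCGG and CACGTG, that of Pla2g10 GGGCGG and CCAAT and that of Smok2b none of the 6 motifs.

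Some windows lay close to the threshold. Just inside were Dnase1l3, a DNase, at 58.8%, 95.1% and 75% (margin 20.1 points), Tagln, a smooth muscle protein, at 78.8%, 99.1% and 78.6% (20.2), and Nsmf at 48.1%, 95.3% and 75% (20.3). Just outside were Lpar2, a lysophosphatidic acid receptor, at 40.5%, 60.5% and 32.1% (19.9), Scn7a, a sodium channel, at 2.5%, 22.4% and 0% (19.9), and Sash3, a lymphocyte adaptor, at 53.7%, 73.5% and 7.69% (19.9).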

How the data were processed

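DNA methylation was measured in mouse oocytes by low-input bisulfite sequencing, per the labels' protocols. The submitters' processing notes list Trimmomatic, Bismark (version field 12.5) and mm10; which step each served, and any further step, is not given in the sources used here. Tables were deposited by the authors as 1 pool per group. Member windows span 2000 bp, 1000 bp to each side of a transcript start. The deposited counts are methylated CpG calls per window, the deposited coverage is all CpG calls, and a further column gives covered CpG positions; tables list windows from 10 calls and 5 positions on. The deposited fraction was read from its values as a mean over positions.

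From these, levels were computed as 100 times methylated over all calls (Python 3.11.15, pandas 2.3.3). Pooled values allow no test between groups, so none is given. Interval formulas were checked on simulated counts. The member rule was checked on simulated windows with at least 50 calls per pool, true 2-month levels below 20% and a rise far above the threshold. Most members had fewer calls in their least covered pool, so that check does not cover false members at low depth. Windows of chromosomes M and Y were left out, and the 2-month WT table ends within chromosome X. Windows took the symbol of a RefSeq gene (GRCm38.p6) whose boundary lay 200 bp or less from the window's centre, 21509 of 40537 windows; a symbol was withheld from 196 genes that had a window at each boundary. Of 97 named member windows whose symbol is in the promoter table, 90 lay at a start listed there. Overlapping member windows formed 1 locus, shown by its named window of largest minimum coverage. Genes were named by rule: 15 loci by margin, with at least 20 calls per pool, 8 by calls, up to 3 per list, and 3 on each side of the threshold; predicted genes, clones, microRNAs and olfactory and vomeronasal receptors were left out of the choice. Members and lists were chosen with earlier results of these data known. Alternatives changed the level measure, call minimum, margin, interval rule and counting of overlaps. A list member's values are not reported here.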

Additional observations from a re-analysis of the deposited data

Results flagged for a closer look

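The table of 11-month WT lists 3 windows on the Y chromosome, with 49 calls in all, and the tables of 2-month WT and Tet2KO list 0. They stand out because oocytes of females carry no Y chromosome and because these windows are used in no comparison above. They are no members, and the cause was not tested.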

How the results depend on the processing

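The number of members depended on the call minimum and the margin. It was 227 with at least 20 calls in every pool and 84 with at least 50, 1147 with a margin of 10 points and 139 with 30, and 57 with both lower Newcombe bounds at 20 points or more. By the deposited fraction 366 windows met the rule, of which 250 were among the 363 members (68.9% of them); 11 months stayed the highest pool by that measure in 359 members. The count was 284 with overlapping windows merged, 293 with both intervals above 0 and 363 without windows whose scaled call ratio between pools was over 10. Median levels lay between 17.5% and 19.8% in 2-month WT, 56.3% and 59.1% in 11-month WT and 20% and 23.3% in Tet2KO under the level, call and locus alternatives. Of 64 differences of named windows, the deposited fraction left 49 within the Newcombe interval, moved 15 outside it and reversed none. No paired analysis was possible because each group is deposited as 1 pooled value per window, and for the same reason no library could be left out.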

Other observations

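Windows that the Tet2KO table does not list could not be members. The 11-month and 2-month WT tables share 4704 such nuclear windows, of which 447 were higher at 11 months by 20 points or more and 294 lower, with a median of 26 calls at 11 months and 19 at 2 months. The 11-month and Tet2KO tables share 888 windows that the 2-month WT table does not list, of which 60 were higher at 11 months by 20 points or more and 58 lower. Sorl1 and Itgal each had another window inside the gene that was high in both 11-month WT and Tet2KO: in Sorl1 at 68.4% of 19 calls, 92.5% of 53 and 95.2% of 21, and in Itgal at 23.3% of 43, 89.1% of 55 and 77.5% of 40, in the order 2-month WT, 11-month WT, Tet2KO.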
